A study of Saccharomyces cerevisiae with 30 samples.

Results

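The response of the Spt7 bromodomain mutant (Spt7m) of budding yeast to sucrose was read from 6 of the 30 libraries of the series: 3 from mutant cells kept for 30 min in rich YP medium with 2% sucrose and 3 from mutant cells kept for the same time in YP with 2% glucose. A gene was kept where its mean reached 1 FPKM (fragments mapped to a gene, scaled to its length and to the library's total) over the 18 libraries of the deposited table, which left 5841 of 6101 genes and 260 below it. The genes nearest that line were snR189 (1.005), snR80 (1.012) and CLB6 (1.015) just above it and YPL119C-A (0.9995), snR65 (0.9959) and YMR046C (0.9775) just below it, in mean FPKM. The series asks how acetylation bears on transcription by SAGA, a coactivator complex. The strain background is BY4741, a laboratory strain of mating type a. Every culture was first grown at 28 °C in 5 mL of YPD, rich medium with 2% glucose, to an OD600 of 0.7. Besides Spt7m, libraries of wild type (WT) and of a Gcn5 bromodomain mutant (Gcn5m), each in both sugars with 3 libraries a group, lie in the same table and were used to ask where the response of Spt7m differed. The labels do not say which residues were changed, how many clones were used or whether the replicates came from separate cultures. The p-values thus rest on the scatter among these libraries, and that scatter may be technical.

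Spt7 is the scaffold on which SAGA assembles, and its bromodomain belongs to a fold that binds acetylated lysines. Gcn5, the acetyltransferase of the same complex, carries a bromodomain too. In glucose, yeast represses genes for other carbon sources, in part through the repressor Mig1, and the Snf1 kinase relieves that repression when glucose runs low. Sucrose is split outside the cell by secreted invertase into glucose and fructose, and glucose represses the gene of that enzyme.

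Values below are FPKM as deposited, and depth is unknown. FPKM is a share of a library's RNA, so less of a transcript per cell and fewer cells that make it cannot be told apart, and total RNA per cell was not measured. The Spt7m libraries summed to 1272874 to 1283252 FPKM in glucose and 1181894 to 1207353 in sucrose, and the 10 highest genes held 19.3 to 19.8% of the sum in glucose and 14.003 to 14.5% in sucrose. The median gene stood at 33.7 to 34.5 FPKM in glucose and at 40.99 to 41.5 in sucrose. The libraries had the a-cell genes of BY4741, with the pheromone receptor gene STE2 at 255 to 336 FPKM in Spt7m, while the alpha-cell receptor gene STE3 was at 0.8304 to 1.33, the alpha-factor genes MF(ALPHA)1 and MF(ALPHA)2 at 0 to 0.904 and 6.99 to 11.4, and the alpha-agglutinin gene SAG1 at 16.8 to 31.7. LEU2 and MET17, which BY4741 lacks, were listed at 0 in all 18 libraries. HIS3, in which BY4741 also carries a deletion, was not at 0. It was at 56.8 to 119.9 FPKM over the 18 libraries and at 56.8 to 89.4 in Spt7m, and why was not tested. URA3, which BY4741 also lacks, was at 0 to 2.304 FPKM in WT, 223 to 444 in Gcn5m and 7079 to 11463 in Spt7m. WT and the mutants therefore differ in URA3 as well as in the bromodomain, and in the comparisons with WT or Gcn5m the parts of these differences cannot be told apart.

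SPT7 itself (YBR081C, build R64, chromosome II, 401253 to 405251, protein-coding) is described first. SPT7 stood at 19.9, 19.9 and 20.6 FPKM in the 3 glucose libraries and at 23.9, 25.6 and 27.2 in the 3 sucrose libraries. Every sucrose library exceeded every glucose library, and replicate 3 in sucrose was the highest. The change was 0.33 ± 0.08 on the log2 scale defined next and was called, but that call was lost after rescaling (quantile normalization gave 0.07, adjusted p = 0.361, and rescaling to a common median gave 0.06, adjusted p = 0.435). No difference from WT was detected (0.30 ± 0.08 in WT, difference 0.03 ± 0.11, adjusted p = 0.821). The mutation is in the protein, so this level does not check the genotype.

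Changes were tested with limma on log2(FPKM + 1), a scale that understates the change of low genes, and a gene was called where its p, adjusted by Benjamini-Hochberg, was under 0.05. A value in parentheses is a log2 change ± SE, sucrose minus glucose, of 3 libraries against 3, and was called unless an adjusted p stands beside it. The SE comes from a single fit of all 18 libraries, with the spread of a gene pooled over the 6 groups. It is therefore the same for a gene in every strain and does not show the scatter of Spt7m alone. In Spt7m, 76.0% of genes were called in sucrose: 3013 of 5841 (51.6%) rose and 1424 (24.4%) fell, and the groups did not overlap for 78.7% of genes, with sucrose above glucose for 53.2% and below for 25.5%. Changes of at least 2-fold were called for 444 rises (7.6%) and 141 falls (2.41%). The median gene rose by 0.19, so list medians are also given relative to that shift. Scaling decided the split between directions: quantile normalization gave 1974 rises and 2280 falls with a median change of -0.03, and median rescaling gave 1856 rises and 2473 falls with a median of -0.07.

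Stretches upstream of a few genes on which the results turn are printed with 1 kind of control word marked in each. Each runs from 500 to 201 bases before the annotated start of the gene, 5′ to 3′ on the gene's strand, as read from the R64 genome. The windows are chrIX:36885-37184 (+) for SUC2, chrVII:107658-107957 (+) for POX1, chrII:381530-381829 (+) for HSP26, chrXIII:610516-610815 (+) for SIP18, chrXIII:509481-509780 (-) for ADE17 and chrXIII:867292-867591 (-) for ADE4. In SUC2, capitals mark words of the repressor Mig1 on either strand, which are GGGG with a pair of bases before it (spelled CCGGGG, spelled CTGGGG, spelled GCGGGG and spelled GTGGGG). In POX1 they mark CGG and CCG set 15 to 18 bases apart, the oleate response element bound by Oaf1 and Pip2. In HSP26 and SIP18 they mark AGGGG or its complement, the stress response element of Msn2 and Msn4, and in ADE17 and ADE4 TGACTC or its complement, bound by Bas1 and, as part of a longer word, by Gcn4. Words of different kinds may share bases.
SUC2: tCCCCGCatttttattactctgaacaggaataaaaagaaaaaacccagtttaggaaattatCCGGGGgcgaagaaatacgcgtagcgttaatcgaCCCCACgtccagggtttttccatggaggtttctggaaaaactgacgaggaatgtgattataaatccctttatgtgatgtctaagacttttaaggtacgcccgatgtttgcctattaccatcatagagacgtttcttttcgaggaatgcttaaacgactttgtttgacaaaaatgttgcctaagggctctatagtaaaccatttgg
POX1: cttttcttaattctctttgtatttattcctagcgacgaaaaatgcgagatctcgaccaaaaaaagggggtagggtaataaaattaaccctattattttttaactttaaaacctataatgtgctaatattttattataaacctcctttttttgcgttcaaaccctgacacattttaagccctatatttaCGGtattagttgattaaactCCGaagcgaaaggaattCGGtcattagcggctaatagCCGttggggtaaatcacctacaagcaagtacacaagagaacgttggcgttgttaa
HSP26: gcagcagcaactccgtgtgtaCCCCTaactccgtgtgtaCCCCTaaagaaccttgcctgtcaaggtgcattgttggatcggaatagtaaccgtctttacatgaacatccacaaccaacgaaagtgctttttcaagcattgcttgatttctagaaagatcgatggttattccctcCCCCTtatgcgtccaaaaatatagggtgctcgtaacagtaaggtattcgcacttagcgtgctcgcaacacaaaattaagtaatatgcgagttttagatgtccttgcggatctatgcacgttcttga
SIP18: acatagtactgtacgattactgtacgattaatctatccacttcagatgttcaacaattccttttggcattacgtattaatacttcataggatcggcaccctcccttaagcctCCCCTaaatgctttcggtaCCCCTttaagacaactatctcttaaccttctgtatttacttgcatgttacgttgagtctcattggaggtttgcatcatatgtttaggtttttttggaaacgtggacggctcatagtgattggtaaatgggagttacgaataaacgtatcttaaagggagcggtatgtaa
ADE17: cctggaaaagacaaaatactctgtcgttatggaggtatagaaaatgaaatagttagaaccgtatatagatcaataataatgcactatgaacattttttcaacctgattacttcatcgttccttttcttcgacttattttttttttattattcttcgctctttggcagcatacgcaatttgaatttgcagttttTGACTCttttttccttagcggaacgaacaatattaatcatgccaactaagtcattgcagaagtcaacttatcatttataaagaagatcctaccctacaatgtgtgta
ADE4: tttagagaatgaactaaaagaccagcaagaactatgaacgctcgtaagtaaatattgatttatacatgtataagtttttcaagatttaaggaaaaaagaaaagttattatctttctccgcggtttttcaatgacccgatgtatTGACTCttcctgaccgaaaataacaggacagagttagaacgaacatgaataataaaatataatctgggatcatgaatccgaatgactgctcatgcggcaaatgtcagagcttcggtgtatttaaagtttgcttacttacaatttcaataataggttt
A match is a description of the letters only. SUC2 held 3 Mig1 matches, starting 499, 439 and 405 bases before the gene, POX1 2 oleate elements, HSP26 3 and SIP18 2 stress elements, and ADE17 and ADE4 1 Bas1 word each. The POX1 window also held 1 stress element, which is not marked. Among all protein-coding genes, 16.8% of such windows held a Mig1 word, 5.88% an oleate element, 22.4% a stress element and 8.29% a Bas1 word.

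The genes by which a cell takes up and splits sugar came first. With 82.9, 79.9 and 86.6 FPKM in glucose, SUC2 came to 965, 993 and 1126 in sucrose. All 3 sucrose libraries lay far above the glucose libraries, and the change was 3.61 ± 0.05. SUC2 encodes the secreted invertase. WT stood at 908, 880.5 and 868 FPKM in sucrose from 63.03, 68.96 and 62.4 in glucose, and the difference between the 2 responses did not pass the test (-0.14 ± 0.08, adjusted p = 0.132). Without replicate 3 of Spt7m in sucrose, the highest of its group, the difference passed (-0.21, adjusted p = 0.0151). Of the 14 genes for sucrose, maltose and isomaltose use, 10 rose and 2 fell, with a median of 0.84 (0.65 relative to all genes). They included the maltase gene MAL12 (1.47 ± 0.12) and the alpha-glucosidase genes IMA4 (1.95 ± 0.08) and IMA3 (1.94 ± 0.08), all near-identical to other copies, so that their single values are uncertain. A Mig1 word stood in the windows of 13 of these 14 genes, against 16.8% of all genes. Genes with near-identical copies may have similar windows too, which was not tested, so the windows need not be independent.

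Among 15 hexose transporter genes, 12 rose and 2 fell. The low-affinity transporter genes were lower in sucrose. For HXT1 the values were 55.1, 57.9 and 60.1 FPKM in glucose and 9.12, 10.05 and 9.11 in sucrose. Every sucrose library lay below every glucose library. HXT1 (-2.49 ± 0.06) fell more than in WT (-1.48 ± 0.06), whereas HXT3 (-1.89 ± 0.05) fell by an amount that did not differ detectably from that in WT (-1.98 ± 0.05, difference 0.09 ± 0.06, adjusted p = 0.246, or 0.15 and 0.0241 without sucrose replicate 3 of Spt7m). Transporters of high affinity rose: HXT7 (2.14 ± 0.05) and HXT6 (2.09 ± 0.05), near-identical copies, and HXT2 (1.41 ± 0.03). HXT2 rose by 1.44 ± 0.03 in WT (difference -0.03 ± 0.05, adjusted p = 0.667), although quantile normalization turned that difference (0.31, adjusted p = 7.0e-05). HXT5, a transporter gene of slow-growing and starved cells, had the largest rise of the list. HXT5 was measured at 22.2, 25.8 and 20.8 FPKM in glucose and 228, 247 and 288 in sucrose. The lowest sucrose library lay above the highest glucose library. Its change (3.41 ± 0.08) was larger than in WT (1.46 ± 0.08). HXT4 (0.33 ± 0.04) rose less than in WT (1.17 ± 0.04), and its call in Spt7m was lost after quantile normalization or median rescaling.

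All 4 sugar kinase genes rose: the hexokinase genes HXK1 (2.04 ± 0.04) and HXK2 (0.44 ± 0.05), the glucokinase gene GLK1 (1.302 ± 0.04) and its relative EMI2 (0.41 ± 0.05). HXK2, the form used in glucose, rose less than in WT (1.004 ± 0.05), and GLK1 rose more (0.49 ± 0.04 in WT). EMI2 lost its call after quantile normalization (0.10, adjusted p = 0.0639). Of the 17 genes of the Snf1 kinase and of glucose repression, 9 rose and 3 fell (5 and 7 with quantile normalization, 4 and 9 with median rescaling), and their median of 0.15 turned negative after both rescalings. The counts before rescaling lie near the shares over all genes, of which 51.6% rose and 24.4% fell. The phosphatase subunit gene REG2 (3.22 ± 0.09) and the repressor gene MIG1 (1.16 ± 0.05) rose, while the repressor gene NRG2 (-1.58 ± 0.09) and TOS3 (-0.73 ± 0.09), which encodes a kinase that activates Snf1, fell. MIG2 (0.24 ± 0.09) was called as higher, but lost that call with both rescalings, which turned its direction, and without replicate 2 in sucrose (0.20, adjusted p = 0.072). The galactokinase gene GAL1 (0.90 ± 0.11) also rose, and it overlaps another annotated gene over its whole length, so its reads may be shared.

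Genes for growth on acetate, lactate and ethanol were among the largest rises. ADY2 stood at 15.5, 14.6 and 12.3 FPKM in the 3 glucose libraries and at 1214, 1237 and 1153 in the 3 sucrose libraries. No glucose library reached the level of any sucrose library. ADY2 encodes an acetate transporter, and its change (6.32 ± 0.08) was larger than in WT, which went to 342, 368 and 319 FPKM. With 20.6, 24.1 and 21.7 FPKM in glucose, JEN1 came to 1451, 1419.6 and 1418 in sucrose. Sucrose values lay wholly above those in glucose, with replicate 1 at the top. JEN1, the lactate and pyruvate permease gene (5.95 ± 0.06), also rose more than in WT (4.96 ± 0.06). The list for gluconeogenesis and the glyoxylate cycle held 21 genes, of which 20 rose and 1 fell, with a median of 2.04 (1.85 relative to all genes) against 1.84 in WT. The change was more positive than in WT for 13 of them and more negative for 1, where 23.9% and 23.5% of all genes were. PCK1, the phosphoenolpyruvate carboxykinase gene (4.65 ± 0.10), rose by an amount with no detected difference from WT (4.88 ± 0.10, difference -0.23 ± 0.14, adjusted p = 0.178), except that the smaller rise in Spt7m passed after quantile normalization (-0.35, adjusted p = 0.0434) and without replicate 3 of Spt7m in sucrose (-0.35, adjusted p = 0.0278). Another gluconeogenic gene, FBP1, which encodes fructose-1,6-bisphosphatase, rose more (2.72 ± 0.09, 2.06 ± 0.09 in WT).

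Genes of their activators rose too. CAT8 (1.73 ± 0.06), which encodes the zinc-cluster activator of gluconeogenic genes, and ADR1 (2.87 ± 0.04), the activator of alcohol dehydrogenase and peroxisomal genes, rose more than in WT (0.66 ± 0.06 and 1.96 ± 0.04). YGR067C, annotated with a zinc finger like that of Adr1, was among the 12 largest rises (5.33 ± 0.07). For ACS1 the values were 21.5, 21.2 and 22.1 FPKM in glucose and 929, 951 and 995 in sucrose. High and low libraries split by sugar without overlap. ACS1 encodes an acetyl-CoA synthetase, and its change was 5.41 ± 0.06 against 4.0999 ± 0.06 in WT. All 7 genes of acetyl-CoA synthesis and the carnitine shuttle, which carries acetyl groups into mitochondria, rose, and all 7 rose more than in WT. Among them were the carnitine acetyltransferase genes CAT2 (5.16 ± 0.07) and YAT2 (4.36 ± 0.07) and the carnitine carrier gene CRC1 (4.605 ± 0.04), and the median was 4.36 against 3.16 in WT. After either rescaling 6 rose and 1 fell.

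The methylcitrate cycle breaks down propionate. RGI2, listed with it as a gene induced in respiratory growth, had the largest rise of all named genes. RGI2 was measured at 2.97, 2.81 and 2.26 FPKM in glucose and 379, 394 and 405 in sucrose. Every sucrose library exceeded every glucose library, and replicate 3 in sucrose was the highest. The change was 6.75 ± 0.17, against 4.51 ± 0.17 in WT. CIT3 (5.24 ± 0.14), PDH1 (4.64 ± 0.06) and ICL2 (4.27 ± 0.06), which encode enzymes of that cycle, rose by 3.05 ± 0.14, 3.47 ± 0.06 and 2.43 ± 0.06 in WT. SPG4, a gene of survival in stationary phase, rose as well (4.85 ± 0.07, 2.63 ± 0.07 in WT).

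**Figure D1:**
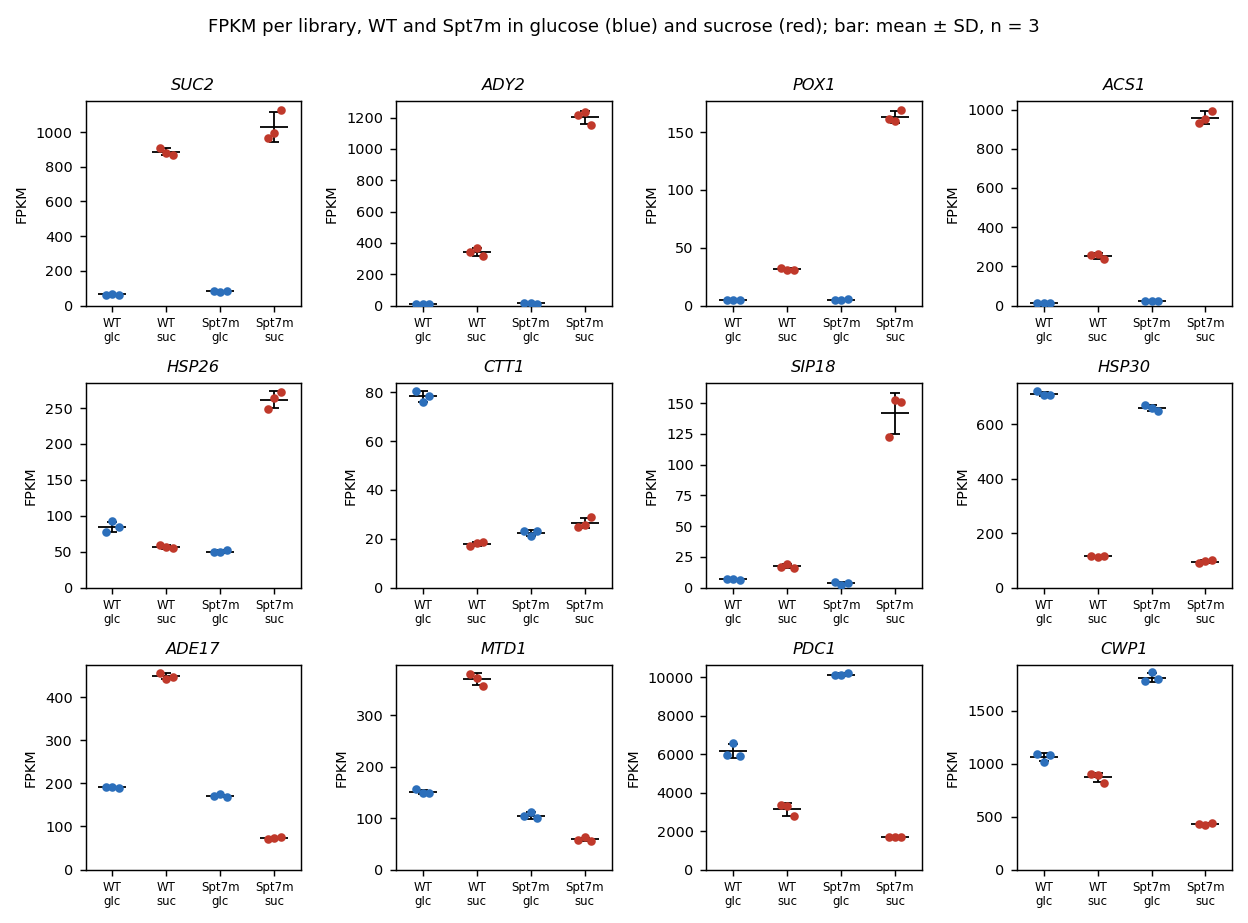
FPKM (linear axis) of 12 genes in each library of WT and Spt7m, blue for glucose and red for sucrose, with the mean and SD of 3 libraries. SUC2 rose in both strains, ADY2, POX1 and ACS1 went higher in Spt7m, and ADE17 and MTD1 went up in WT and down in Spt7m.

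Peroxisomal fatty acid oxidation showed a larger gap between the strains. POX1 stood at 4.59, 4.48 and 6.13 FPKM in the 3 glucose libraries and at 161, 159.5 and 169 in the 3 sucrose libraries. The lowest sucrose library lay above the highest glucose library. POX1 encodes acyl-CoA oxidase, the first enzyme of the pathway, and its change of 4.77 ± 0.08 compared with 2.52 ± 0.08 in WT, where the sucrose libraries stood at 32.7, 31.03 and 30.4 FPKM. All 15 genes of the list rose (14 after either rescaling), with a median of 2.703 (2.51 relative to all genes) against 0.71 in WT, and 13 of them rose more than in WT. The thiolase gene POT1 (3.99 ± 0.08), the enoyl-CoA isomerase gene ECI1 (3.51 ± 0.11), the peroxisomal catalase gene CTA1 (3.29 ± 0.06) and the multifunctional enzyme gene FOX2 (3.01 ± 0.04) rose by 1.64 ± 0.08, 1.805 ± 0.11, 0.83 ± 0.06 and 0.39 ± 0.04 in WT. In glucose the 2 strains stood close for FOX2, at 10.8, 10.5 and 11.2 FPKM in Spt7m and 13.3, 12.8 and 12.98 FPKM in WT. An oleate element was found in 4 of 15 windows (26.7%).

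Respiration genes rose together. All 36 genes of the respiratory chain and ATP synthase rose (35 with quantile normalization and 34 with median rescaling), with a median of 1.12 (0.93 relative to all genes) against 0.66 in WT, and 31 rose more than in WT while 1 rose less. NDE2, an external NADH dehydrogenase gene (3.35 ± 0.06), led the list, followed by the cytochrome bc1 subunit gene QCR10 (1.898 ± 0.08). QCR9 (1.59 ± 0.08) and the cytochrome oxidase subunit gene COX4 (1.56 ± 0.05) rose by 1.03 ± 0.08 and 0.91 ± 0.05 in WT. Of 17 citric acid cycle genes, 16 rose and 0 fell, with a median of 1.07 against 0.74 in WT. Succinate dehydrogenase, which serves both the cycle and the chain, had some of the largest rises. With 52.2, 48.5 and 49.4 FPKM in glucose, SDH1 came to 198, 218 and 258 in sucrose. No glucose library reached the level of any sucrose library. SDH1 (2.14 ± 0.08), SDH3 (2.03 ± 0.06) and SDH2 (1.76 ± 0.08) rose by 0.98 ± 0.08, 1.14 ± 0.06 and 0.61 ± 0.08 in WT, and the mitochondrial citrate synthase gene CIT1 (2.12 ± 0.05) by 1.35 ± 0.05.

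HAP4 encodes the regulated activator subunit of the Hap2/3/4/5 complex, which drives respiratory genes. For HAP4 the values were 162, 155 and 159 FPKM in glucose and 519, 517 and 501 in sucrose. The groups did not overlap, and the rise (1.69 ± 0.03) exceeded that in WT (0.45 ± 0.03). Mitochondrial ribosomal protein genes rose in both strains. All 71 rose in Spt7m, led by MRPL16 (1.22 ± 0.05), MRPL39 (1.16 ± 0.09), RSM7 (1.16 ± 0.05) and MRPL10 (1.08 ± 0.06), but their median of 0.74 was close to the 0.79 of WT. Only 4 of the 71 rose more than in WT, and 14 rose less. After quantile normalization or median rescaling 69 of the 71 rose.

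The pyruvate decarboxylase genes of fermentation fell. PDC1 was measured at 10111, 10115 and 10229 FPKM in glucose and 1672, 1698 and 1685 in sucrose. The highest sucrose library stayed under the lowest glucose library. PDC1 encodes the main pyruvate decarboxylase, the step that commits pyruvate to ethanol, and its fall (-2.59 ± 0.08) exceeded that in WT (-0.98 ± 0.08), which started lower, at 5984, 6614 and 5912 FPKM. PDC5, the gene of a second pyruvate decarboxylase, had the largest fall of all named genes. PDC5 stood at 60.2, 49.8 and 55.4 FPKM in the 3 glucose libraries and at 5.66, 5.09 and 5.14 in the 3 sucrose libraries. No sucrose library reached the level of any glucose library. Its glucose level in WT was lower, 10.6, 11.99 and 13.8 FPKM, so the fall in Spt7m (-3.15 ± 0.10; -0.32 ± 0.10 in WT) began above it and ended at 5.66, 5.09 and 5.14 FPKM beside 8.797, 9.29 and 10.2 FPKM in WT. Of 15 genes of ethanol and acetaldehyde metabolism, 10 rose and 4 fell, where 51.6% and 24.4% of all genes did. The share of falls was thus near that over all genes. The change was more positive than in WT for 5 and more negative for 7. The rises included ADH2 (3.46 ± 0.10, 2.301 ± 0.10 in WT), which encodes the alcohol dehydrogenase that consumes ethanol, and the mitochondrial acetaldehyde dehydrogenase gene ALD4 (2.72 ± 0.06). ADH1, the gene of the ethanol-forming enzyme, fell (-0.57 ± 0.05), but that call and its difference from WT were lost after quantile normalization (-0.02, adjusted p = 0.831).

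Of 17 glycolysis genes, 3 rose and 13 fell, with a median of -0.81 against -0.43 in WT, and the change was more negative than in WT for 12 and more positive for 3. With 5859, 6405 and 6244 FPKM in glucose, CDC19 came to 1457, 1477 and 1378 in sucrose. CDC19 encodes pyruvate kinase, the last step of glycolysis, and its 3 sucrose libraries lay well below those in glucose (-2.101 ± 0.05, -1.28 ± 0.05 in WT). The enolase gene ENO2 (-1.88 ± 0.05), the glyceraldehyde-3-phosphate dehydrogenase gene TDH3 (-1.37 ± 0.05), both with near-identical copies, and the phosphoglycerate mutase gene GPM1 (-1.303 ± 0.04) also fell. The larger fall of TDH3 in Spt7m turned to a value near 0 after quantile normalization (0.06, adjusted p = 0.61).

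**Figure D2:**
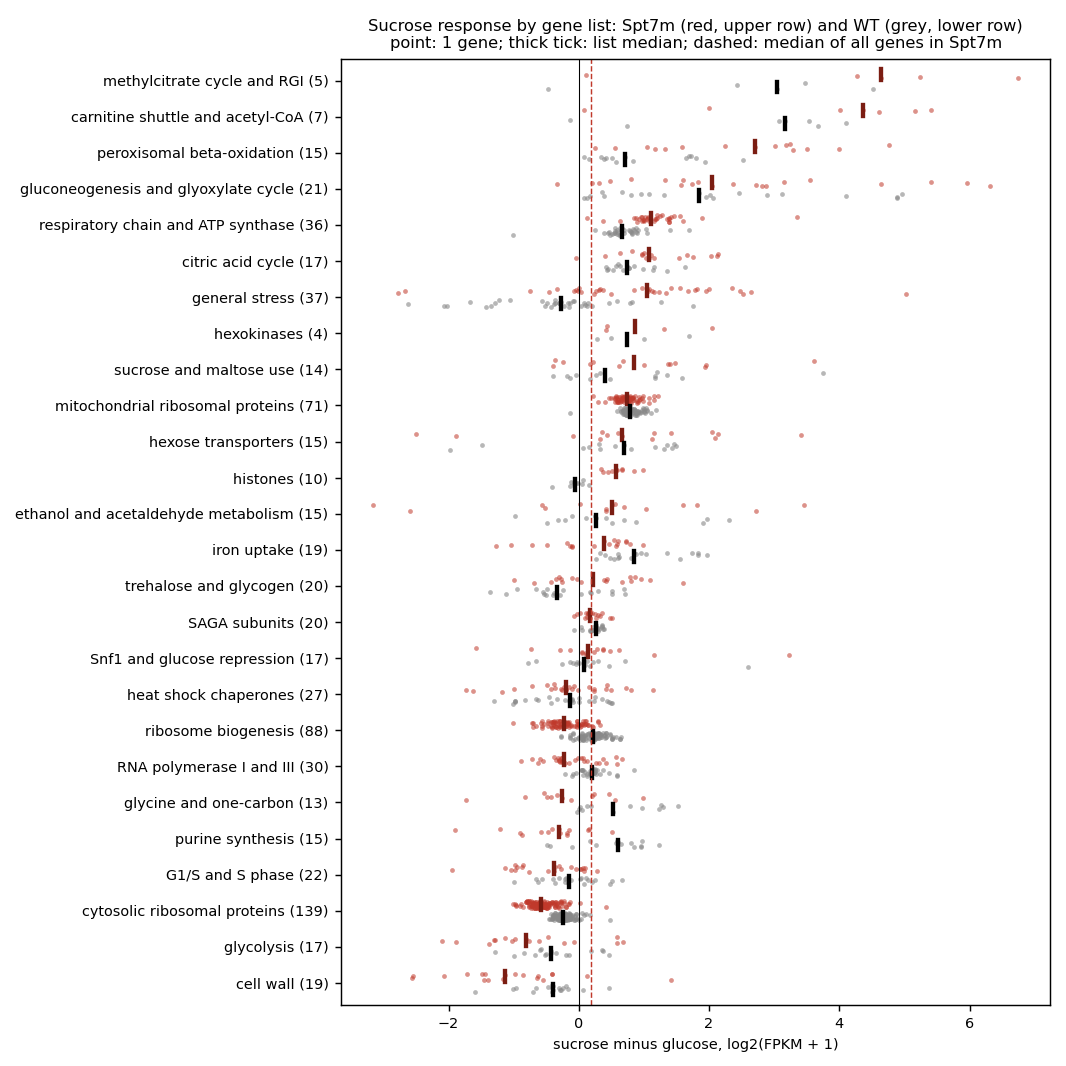
Log2 changes, sucrose minus glucose on the log2(FPKM + 1) scale, of the genes of 26 lists in Spt7m (red) and WT (grey), with list medians as thick ticks and the number of genes tested in brackets. General stress genes have a median of 1.05 in Spt7m and -0.27 in WT, and purine synthesis genes -0.31 and 0.60.

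General stress genes, many of them targets of Msn2 and Msn4 that glucose holds low, had medians of opposite sign in the strains. Of 37 genes, 27 rose and 5 fell in Spt7m, with a median of 1.05 (0.86 relative to all genes), while 7 rose and 23 fell in WT (50.9% and 15.7% of all genes), with a median of -0.27. In Spt7m the counts became 23 and 10 with quantile normalization and 22 and 10 with median rescaling. In WT they became 7 and 25, and 6 and 29. The change was more positive than in WT for 31 and more negative for 2, against 23.9% and 23.5% of all genes. For HSP26 the values were 49.05, 49.04 and 52.5 FPKM in glucose and 249, 264 and 272 in sucrose. Sucrose values lay wholly above those in glucose, with replicate 3 at the top. In WT the small heat shock protein gene HSP26 moved from 77.2, 92.1 and 84.01 FPKM to 59.5, 55.99 and 54.6 FPKM, so Spt7m started lower and ended higher. Its change was 2.36 ± 0.06 in Spt7m and -0.56 ± 0.06 in WT. The desiccation hydrophilin gene SIP18 had the largest difference from WT of all named genes. SIP18 was measured at 4.89, 2.18 and 3.43 FPKM in glucose and 122, 152 and 151 in sucrose. High and low libraries split by sugar without overlap. The change was 5.03 ± 0.15 against 1.27 ± 0.15 in WT.

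Not every stress gene rose. CTT1 stood at 23.2, 20.9 and 23.04 FPKM in the 3 glucose libraries and at 24.9, 25.8 and 28.8 in the 3 sucrose libraries. The sucrose libraries lay above the glucose libraries by a small margin. The cytosolic catalase gene CTT1 was called as higher (0.23 ± 0.08), but lost the call after both rescalings, which turned its sign, and without replicate 3 in sucrose or replicate 2 in glucose. In WT it went from 80.6, 75.99 and 78.6 FPKM to 16.9, 18.1 and 18.6 FPKM (-2.07 ± 0.08), so the strains stood further apart in glucose than in sucrose. HSP12, a membrane-protecting stress protein gene (2.64 ± 0.04, 0.58 ± 0.04 in WT), and the reticulon gene RTN2 (1.55 ± 0.08, -1.34 ± 0.08 in WT) rose. The membrane protein genes HSP30 (-2.78 ± 0.05) and YRO2 (-2.67 ± 0.08) fell in both strains, and HSP30 by an amount that did not differ detectably from WT (-2.62 ± 0.05, difference -0.16 ± 0.07, adjusted p = 0.0577), although the larger fall in Spt7m passed after both rescalings, with only the 4 compared groups in the fit and without replicate 3 of Spt7m in sucrose. A stress element stood in 22 of 37 windows (59.5%, against 22.4% of all genes). Many genes of this list are targets of Msn2 and Msn4, which bind that element, so the share is no test of the response. Of the trehalose and glycogen windows, 75.0% held it too.

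Heat shock chaperone genes were mixed, with 9 of 27 higher and 15 lower and a median of -0.19 against -0.13 in WT. The protein sorting gene BTN2 (-1.73 ± 0.07), its paralog CUR1 (-1.18 ± 0.08) and the Hsp70 gene SSA2 (-1.62 ± 0.05, with a near-identical copy) fell, and the stress-induced Hsp70 gene SSA4 (1.13 ± 0.07) rose. Of 20 genes of the storage sugars trehalose and glycogen, 10 rose and 7 fell, and the median of 0.21 went to -0.05 with median rescaling. Among all genes 51.6% rose and 24.4% fell, so the share of rises was near that over all genes. The change was more positive than in WT for 16 of 20 and more negative for 0. The acid trehalase gene ATH1 (1.61 ± 0.05), the glycogenin gene GLG2 (1.097 ± 0.08) and the debranching enzyme gene GDB1 (0.96 ± 0.05) rose, and the trehalose-6-phosphate phosphatase gene TPS2 fell (-0.99 ± 0.04, -1.12 ± 0.04 in WT).

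Most genes of ribosomes and their assembly fell. Of 139 cytosolic ribosomal protein genes, 1 rose and 135 fell, with a median of -0.58 (-0.77 relative to all genes) against -0.24 in WT. The fall was larger than in WT for 112 of them and smaller for 0. RPS22A (-1.01 ± 0.06), RPL8B (-0.97 ± 0.04), RPL9A (-0.96 ± 0.07) and RPL14A (-0.96 ± 0.06) fell most, and the first 3 have near-identical copies, so reads may be shared between copies. Ribosome biogenesis genes, which encode factors that process and assemble ribosomal RNA, had a median of -0.22 (-0.41 relative to all genes). Of 88 tested, 7 rose and 59 fell in Spt7m, whereas 62 rose and 5 fell in WT. In WT those counts became 23 and 20 with quantile normalization and 15 and 30 with median rescaling, and the median of 0.22 went to -0.03 with median rescaling. In Spt7m they became 0 and 80 with quantile normalization and 0 and 81 with median rescaling. The change was more negative than in WT for 74 and more positive for 0.

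With 324, 317 and 321 FPKM in glucose, DBP2 came to 166, 166 and 146 in sucrose. Sucrose values lay wholly below those in glucose. DBP2 encodes an RNA helicase of ribosome assembly, and its fall (-1.01 ± 0.05, -0.28 ± 0.05 in WT) was the largest of the list. The nucleolin-like gene NSR1 (-0.71 ± 0.04, 0.04 ± 0.04, adjusted p = 0.454 in WT), the export factor gene SDA1 (-0.71 ± 0.05) and the small-subunit gene KRR1 (-0.70 ± 0.05) followed. Among 30 genes of RNA polymerases I and III, 7 rose and 17 fell, and 20 changed more negatively than in WT. The polymerase I genes RPA49 (-0.88 ± 0.06) and RPA12 (-0.71 ± 0.09) and the polymerase III gene RPC82 (-0.63 ± 0.09) fell, and RRN5, a gene of the polymerase I upstream activating factor, rose (0.66 ± 0.08).

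Purine synthesis genes also moved in opposite directions. For ADE17 the values were 170.0, 174 and 169 FPKM in glucose and 71.3, 73.8 and 74.7 in sucrose. Every sucrose library lay below every glucose library. ADE17 encodes an enzyme of the last steps of de novo purine synthesis. In WT it rose from 192, 192 and 189 FPKM to 456, 442 and 448 FPKM (1.23 ± 0.04), while in Spt7m it fell (-1.21 ± 0.04) from a glucose level near that of WT. Of 15 purine genes, 3 rose and 12 fell in Spt7m, and 12 rose and 3 fell in WT. The change was more negative in Spt7m for 14 of 15 and more positive for 1. ADE4, the gene of the first committed enzyme (-0.88 ± 0.06, 0.96 ± 0.06 in WT), and the IMP dehydrogenase genes IMD4 (-1.898 ± 0.05, -0.44 ± 0.05 in WT) and IMD2 (-0.90 ± 0.04, with near-identical copies) fell. A Bas1 word stood in 9 of 15 windows (60.0%).

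One-carbon units feed purine synthesis. Of 13 glycine and one-carbon genes, 5 rose and 7 fell in Spt7m (3 and 7 after either rescaling), against 7 and 0 in WT (7 and 4 after either rescaling). In Spt7m 11 changed more negatively than in WT. MTD1 was measured at 105, 112 and 99.5 FPKM in glucose and 58.1, 62.6 and 56.5 in sucrose. The highest sucrose library stayed under the lowest glucose library. The folate dehydrogenase gene MTD1 fell (-0.82 ± 0.05) where it rose in WT (1.29 ± 0.05). The phosphoserine phosphatase gene SER2 fell (-1.73 ± 0.07, 0.05 ± 0.07, adjusted p = 0.516 in WT), and the phosphoserine transaminase gene SER1 (0.55 ± 0.05) and the methylenetetrahydrofolate reductase gene MET13 (0.98 ± 0.06) rose. Iron uptake genes showed 11 rises and 6 falls among 19 in Spt7m, or 9 and 8 after either rescaling. All 19 rose in WT (17 with quantile normalization and 16 with median rescaling), and 13 changed more negatively in Spt7m than in WT. ARN2 stood at 273, 282 and 286 FPKM in the 3 glucose libraries and at 138, 140.3 and 128 in the 3 sucrose libraries. No sucrose library reached the level of any glucose library. ARN2 encodes a siderophore transporter, and in WT it went from 48.3, 45.6 and 48.5 FPKM to 91.3, 92.9 and 94.4 FPKM. All Spt7m glucose libraries thus stood above all WT libraries. The changes were -1.05 ± 0.05 in Spt7m and 0.95 ± 0.05 in WT for ARN2, and -1.27 ± 0.06 and 0.27 ± 0.06 for ENB1, another siderophore transporter gene. The copper transporter gene CCC2 (0.98 ± 0.06) and TIS11 (0.78 ± 0.06), whose protein destabilizes messages of iron-using proteins, rose.

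Most cell wall genes fell more than in WT. Of 19, 2 rose and 17 fell, with a median of -1.13 against -0.40 in WT, and 15 fell further or rose less than in WT. With 1776, 1859 and 1793 FPKM in glucose, CWP1 came to 430.2, 419 and 436 in sucrose. Sucrose values lay wholly below those in glucose. CWP1 encodes a wall mannoprotein (-2.08 ± 0.05, -0.29 ± 0.05 in WT). The structural gene PIR3 (-2.56 ± 0.05), the wall-remodelling gene CRH1 (-1.71 ± 0.04) and SLT2 (-2.54 ± 0.04), which encodes the kinase of the cell integrity pathway, fell by 1.599 ± 0.05, 0.40 ± 0.04 and 1.01 ± 0.04 in WT. The wall protein gene PST1 fell too (-2.57 ± 0.04, -1.597 ± 0.04 in WT). For SLT2 the values were 313, 310.1 and 317 FPKM in glucose and 50.1, 54.8 and 53.98 in sucrose. Every sucrose library lay below every glucose library. Of 22 genes of G1/S and S phase, 1 rose and 13 fell, among them the ribonucleotide reductase gene RNR1 (-1.94 ± 0.08), the cyclin genes PCL1 (-1.14 ± 0.14) and CLN2 (-1.04 ± 0.10) and the replication gene CDC45 (-0.98 ± 0.13).

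The other large falls were in the spermine transporter gene TPO2 (-2.96 ± 0.06, with a near-identical copy), the putative membrane protein gene YBR056W-A (-2.48 ± 0.14) and the uncharacterized genes YOL014W (-2.45 ± 0.11) and YJL107C (-2.39 ± 0.09). WT changed by -1.65 ± 0.06, -1.04 ± 0.14, -1.76 ± 0.11 and -0.60 ± 0.09. The phosphate transporter gene PHO84, which overlaps another annotated gene over its whole length, fell (-0.36 ± 0.07) where it rose in WT (0.37 ± 0.07). The inositol synthesis gene INO1 rose (0.34 ± 0.10) by an amount that did not differ detectably from WT (0.34 ± 0.10 in WT, difference 0.00 ± 0.14, adjusted p = 0.989), and lost its call after both rescalings.

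Histone genes rose in Spt7m. All 10 rose, with a median of 0.58 (0.39 relative to all genes), whereas 1 rose and 2 fell in WT (0 and 6 with quantile normalization, 0 and 9 with median rescaling), and all 10 differed from WT (9 with quantile normalization). HHF2 (0.99 ± 0.07) encodes H4, HHT2 (0.85 ± 0.05) and HHT1 (0.66 ± 0.05) H3, and HTA1 (0.66 ± 0.06) H2A, and each has a near-identical copy, so single values are uncertain. With either rescaling 8 of the 10 rose. Of 20 SAGA genes tested, 12 rose and 0 fell (3 and 4 with quantile normalization, 2 and 4 with median rescaling), with a median of 0.17 that turned negative after both rescalings, and 1 changed more negatively than in WT while 0 changed more positively. Over all genes the shares before rescaling were 51.6% rising and 24.4% falling. The deubiquitinase module gene SGF73 (0.50 ± 0.06), the Tudor-domain subunit gene SGF29 (0.48 ± 0.07) and the core subunit gene SPT20 (0.36 ± 0.08) rose, SPT20 without a call after median rescaling (0.09, adjusted p = 0.26), whereas GCN5 (0.13 ± 0.09, adjusted p = 0.176, but 0.22 and adjusted p = 0.0354 without sucrose replicate 1) and NGG1, which encodes Ada3 (0.12 ± 0.07, adjusted p = 0.119), did not pass.

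**Figure D3:**
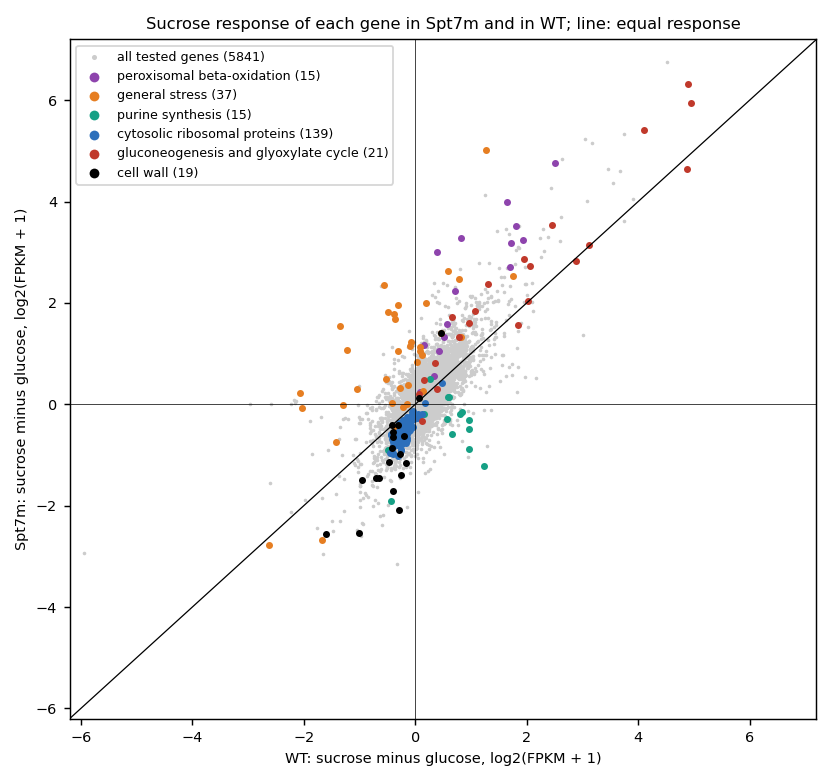
Sucrose response of each of 5841 tested genes in Spt7m (vertical) against WT (horizontal), both as log2 changes on the log2(FPKM + 1) scale, with 6 lists in colour and a line of equal response. Beta-oxidation and general stress genes lie mostly above the line, and purine, ribosomal protein and cell wall genes lie mostly below it.

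The difference between the responses was tested for every gene as Spt7m minus WT. It was called for 2773 of 5841 genes (47.5%), more positive in Spt7m for 1398 (23.9%) and more negative for 1375 (23.5%), and by at least 2-fold for 124 (2.12%) and 73 (1.25%). In WT alone 66.7% of genes were called, of which 2975 (50.9% of all genes) rose and 919 (15.7%) fell, and 3.51% rose and 0.907% fell by at least 2-fold. That split became 1515 and 1849 with quantile normalization, or 1309 and 2243 with median rescaling. Besides SIP18 (3.76 ± 0.21), the largest positive differences were in EGO4 (2.96 ± 0.10), a gene annotated as an Msn2/Msn4 target, HSP26 (2.92 ± 0.09), RTN2 (2.89 ± 0.11), YIG1 (2.87 ± 0.17), whose product interacts with glycerol 3-phosphatase, FOX2 (2.62 ± 0.06), DAN1 (2.599 ± 0.25), a mannoprotein gene of low oxygen, and CTA1 (2.46 ± 0.09). EGO4 was measured at 38.9, 38.97 and 36.1 FPKM in glucose and 195, 211 and 185 in sucrose. Every sucrose library exceeded every glucose library, and replicate 2 in sucrose was the highest. WT went from 123, 103 and 113 FPKM to 74.2, 71.1 and 74.5 FPKM for this gene, so Spt7m lay below WT in glucose and above it in sucrose. DAN1 stood at 5.13, 7.27 and 5.79 FPKM in the 3 glucose libraries and at 5.39, 5.43 and 7.62 in the 3 sucrose libraries. These ranges overlapped. DAN1 did not pass in Spt7m (0.01 ± 0.18, adjusted p = 0.944) and fell in WT (-2.58 ± 0.18). The largest negative differences were in PDC5 (-2.83 ± 0.15), ADE17 (-2.44 ± 0.06), MTD1 (-2.11 ± 0.07), ARN2 (-2.0003 ± 0.07), ADE4 (-1.84 ± 0.08), YJL107C (-1.79 ± 0.12), CWP1 (-1.79 ± 0.07) and SER2 (-1.78 ± 0.10).

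Against the other bromodomain mutant, far fewer genes differed. In this and the following paragraphs on Gcn5m, a single value in parentheses is a difference of responses, Spt7m minus Gcn5m, unless marked otherwise. The response of Spt7m differed from that of Gcn5m for 807 of 5841 genes (13.8%), more positive for 437 (7.48%) and more negative for 370 (6.33%), and by at least 2-fold for 16 (0.274%) and 4 (0.0685%). In Gcn5m 74.0% of genes were called, with 52.2% higher and 21.8% lower, and by at least 2-fold 6.27% and 2.17%. Its split of 3048 and 1275 became 1820 and 2191 with quantile normalization, or 1721 and 2333 with median rescaling. The gluconeogenic genes were among the widest apart. PCK1 rose by 4.65 ± 0.10 in Spt7m and 2.78 ± 0.10 in Gcn5m (difference 1.86 ± 0.14), and FBP1 by 2.72 ± 0.09 and 0.79 ± 0.09 (difference 1.93 ± 0.13). With 11.1, 9.35 and 9.82 FPKM in glucose, PCK1 came to 248, 261 and 326 in sucrose. The lowest sucrose library lay above the highest glucose library. In sucrose Gcn5m stood at 88.1, 87.7 and 85.3 FPKM, below all Spt7m and WT libraries. SUC2 (2.71 ± 0.05 in Gcn5m, difference 0.90 ± 0.08), MAL12 (0.63 ± 0.16), CAT8 (0.53 ± 0.09), REG2 (0.55 ± 0.12) and HXT5 (1.69 ± 0.12) also rose more in Spt7m than in Gcn5m.

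Respiratory chain genes were higher in their response in Spt7m for 30 of 36, and lower for 0. SDH1 (1.098 ± 0.11), SDH2 (1.05 ± 0.11), SDH3 (0.55 ± 0.08), QCR10 (0.99 ± 0.12) and COX4 (0.83 ± 0.07) were among them. The cytochrome c gene CYC1, chosen after its values were seen, had 61.9, 51.1 and 51.7 FPKM in glucose and 109, 122 and 152 in sucrose. In Gcn5m it had 31.5, 45.2 and 34.1 FPKM in glucose and 31.6, 35.4 and 27.8 FPKM in sucrose, so that the responses were 1.199 ± 0.13 and -0.21 ± 0.13, adjusted p = 0.165 (difference 1.41 ± 0.19). CYC1 rose by 1.41 ± 0.13 in WT, and no difference of Spt7m from WT was detected (difference -0.21 ± 0.19, adjusted p = 0.379 in limma). General stress genes responded more positively in Spt7m than in Gcn5m for 31 of 37, with SIP18 (1.79 ± 0.21), RTN2 (1.34 ± 0.11), YRO2 (1.04 ± 0.11), HSP26 (0.92 ± 0.09), HSP30 (0.85 ± 0.07) and CTT1 (0.56 ± 0.12). In Gcn5m 22 of the 37 rose and 12 fell, with a median of 0.42. A positive median, where that of WT was -0.27, was thus not particular to Spt7m. PHO84 fell by less in Spt7m than in Gcn5m (-1.65 ± 0.07 in Gcn5m, difference 1.29 ± 0.09).

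Other genes responded more negatively in Spt7m. PDC5 fell by 0.58 ± 0.10 in Gcn5m (difference -2.57 ± 0.15), and there its glucose level was 9.74, 9.16 and 7.89 FPKM. Of 88 ribosome biogenesis genes, 57 changed more negatively than in Gcn5m and 0 more positively, DBP2 (-0.65 ± 0.06) among them. Histone genes rose less in Spt7m for 8 of 10, including HHF2 (-0.72 ± 0.10), HHT1 (-0.62 ± 0.08) and, chosen after their values were seen, the H2A gene HTA2 (-1.47 ± 0.07, with a near-identical copy) and the H2B gene HTB2 (-1.18 ± 0.09). Gcn5m started from 69.1, 65.1 and 63.3 FPKM for HTA2 in glucose, below all other groups, and Spt7m from 159, 141 and 152 FPKM. TPO2 fell further in Spt7m (-0.52 ± 0.08). Oxidation of fatty acids did not separate the mutants in the same way: among 15 beta-oxidation genes 1 differed upward and 1 downward. Several lists set against WT above moved in Gcn5m much as in Spt7m. Medians in Gcn5m and Spt7m were 2.73 and 2.70 for beta-oxidation. They were 4.19 and 4.36 for the carnitine list, and 4.54 and 4.64 for the methylcitrate list. In Gcn5m, 2 cell wall genes rose and 17 fell (median -1.13), and 2 ribosomal protein genes rose and 127 fell (median -0.48). Iron uptake genes counted 12 and 5 there (median 0.40), and one-carbon genes 5 and 6 (median -0.16). Purine genes counted 3 and 9 (median -0.18), and 8 of 15 changed more negatively in Spt7m, 1 more positively. Of all genes, 52.2% rose and 21.8% fell in Gcn5m.

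**Figure D4:**
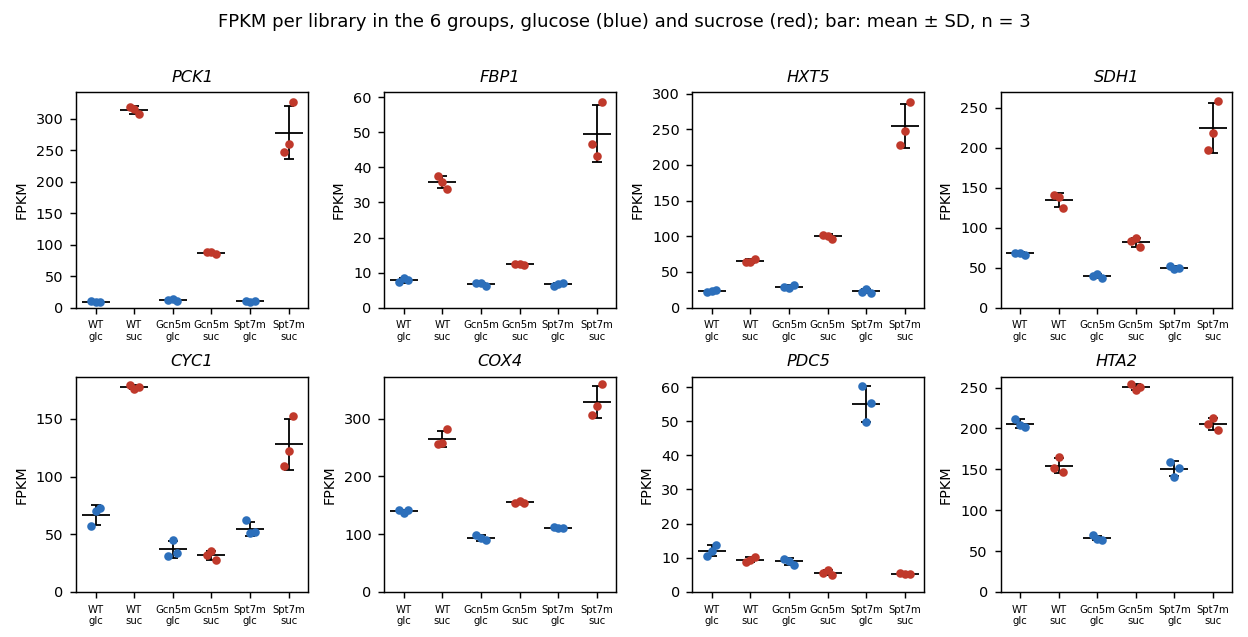
FPKM (linear axis) of 8 genes in each library of WT, Gcn5m and Spt7m, blue for glucose and red for sucrose, with the mean and SD of 3 libraries. In sucrose, PCK1, FBP1, HXT5, SDH1, CYC1 and COX4 were higher in all Spt7m libraries than in all Gcn5m libraries, PDC5 stood apart in Spt7m in glucose, and HTA2 was lowest in Gcn5m in glucose.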

How the data were processed

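Each library started from 1 µg of total RNA and an Illumina TruSeq kit, per the labels' protocols. The authors deposited FPKM per gene in a table of 18 libraries. cutadapt 1.16, HISAT2 2.1.0, StringTie 1.3.3b and genome build R64 are named in the submitters' processing notes. Their settings, the strand setting and the read totals are not given in the sources used here, and whole reads could not be recovered from the values, so depth and counting error are unknown. Of 6101 genes, 6097 matched the RefSeq R64 annotation by name, 2 names were restored from spreadsheet dates, and 0 columns were left unmapped. Genes whose mean reached 1 FPKM were fitted as log2(FPKM + 1) with limma 3.58.1 in R 4.3.3, with 6 group means, empirical Bayes with a trend, and Benjamini-Hochberg adjustment over all 5841 genes. Exact tests of 3 against 3 cannot go below p = 0.1 and were not used. Contrasts gave the sucrose effect in each strain and its differences between strains.

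The named genes were SPT7, GCN5, NGG1, SUC2 and 24 other fixed genes of sugar and stress responses, the 12 largest rises and 12 largest falls with non-overlapping groups and a mean of at least 5 FPKM, the 8 most positive and 8 most negative differences from WT, and from each of 26 described lists the called members of largest change, at most 4. Genes against Gcn5m were those of the named set with a called difference of at least 0.5, plus 3 chosen after their values were seen. The genes and lists were chosen with earlier results of these data known. Near-identical copies share at least 90% identity over at least 50% of the gene (BLAST 2.17.0). Upstream windows were read from the RefSeq R64 genome. Simulated data gave every group the mean of each gene over all libraries of the table and its spread pooled within groups. A small set of genes was then changed in Spt7m sucrose. There, 62% of genes changed by 0.3 on the log2 scale, 98% at 0.6 and 100% at 1 were called for the sucrose effect, with 8 false calls. For the difference from WT it was 42%, 90% and 100%, with 7 false calls. Far fewer genes were changed there than were called in the real data, so these rates need not hold for the real data. Replicate numbers did not pair the libraries. Alternatives were another pseudocount (0.1), no filter, a stricter filter at mean 5 FPKM, 2 scalings of the log2 values (quantile normalization and a common median), a replicate block, a fit of the compared groups alone, a 2-fold minimum and leaving out each library. Figures were drawn with matplotlib 3.10.9.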

Additional observations from a re-analysis of the deposited data

Results flagged for a closer look

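The sucrose response of Spt7m was set against that of WT and of Gcn5m by the contrast of the 2 effects in the same limma fit, and a difference passed for 2773 genes against WT and 807 against Gcn5m at an adjusted p under 0.05. The named genes among them are listed here because the response differed between strains. Values are log2 differences, Spt7m minus the other strain. No explanation was tested.

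Against WT, the differences were these. Among sugar uptake, sugar kinase and repression genes, HXT7 (0.78), HXK1 (0.35), GLK1 (0.81), MIG1 (0.45), MIG2 (0.32), GAL1 (0.59), IMA4 (0.75), IMA3 (0.78), HXT5 (1.95), HXT6 (0.78) and REG2 (0.63) responded more positively. For sugar uptake, sugar kinase and repression genes, the difference was negative in HXT1 (-1.01), HXT4 (-0.84), HXK2 (-0.57) and NRG2 (-0.81). Gluconeogenic, acetate and methylcitrate genes with a more positive response were CAT8 (1.07), ADR1 (0.91), FBP1 (0.67), RGI2 (2.24), ADY2 (1.43), JEN1 (0.997), ACS1 (1.31), CIT3 (2.199), CAT2 (1.99), PDH1 (1.18), CRC1 (0.93), YAT2 (0.82) and ICL2 (1.83). Among peroxisomal genes, POX1 (2.25), POT1 (2.36), ECI1 (1.71), CTA1 (2.46) and FOX2 (2.62) responded more positively. For respiratory and mitochondrial genes, the difference was positive in HAP4 (1.24), SDH1 (1.16), CIT1 (0.77), SDH3 (0.89), SDH2 (1.15), NDE2 (1.66), QCR10 (1.01), QCR9 (0.57), COX4 (0.64) and RSM7 (0.30). Glycolytic and ethanol genes with a more positive response were ADH2 (1.16) and ALD4 (0.74). Among glycolytic and ethanol genes, ADH1 (-0.36), PDC5 (-2.83), PDC1 (-1.61), CDC19 (-0.82), ENO2 (-0.88), TDH3 (-0.53) and GPM1 (-0.63) responded more negatively. For stress, chaperone and storage sugar genes, the difference was positive in HSP12 (2.05), HSP26 (2.92), CTT1 (2.31), SIP18 (3.76), ATH1 (0.90), GLG2 (0.58), GDB1 (0.67), SSA4 (1.26), EGO4 (2.96) and RTN2 (2.89). Stress, chaperone and storage sugar genes with a more negative response were YRO2 (-1.0), BTN2 (-0.74), SSA2 (-0.63) and CUR1 (-0.55). Among ribosome and RNA polymerase genes, RRN5 (0.42) responded more positively. For ribosome and RNA polymerase genes, the difference was negative in NSR1 (-0.75), RPS22A (-0.71), RPL8B (-0.57), RPL9A (-0.50), RPL14A (-0.57), DBP2 (-0.73), SDA1 (-0.62), KRR1 (-0.57), RPA49 (-0.84), RPA12 (-0.96) and RPC82 (-0.75). Among purine, one-carbon and iron genes, MET13 (0.97) responded more positively. Among purine, one-carbon and iron genes, IMD4 (-1.46), ADE17 (-2.44), IMD2 (-0.42), ADE4 (-1.83), SER2 (-1.78), MTD1 (-2.11), SER1 (-0.42), ENB1 (-1.54), ARN2 (-2.0) and TIS11 (-0.77) responded more negatively. For cell wall and G1/S genes, the difference was negative in PIR3 (-0.96), SLT2 (-1.53), CWP1 (-1.79), CRH1 (-1.31), RNR1 (-1.28), PCL1 (-1.28), CLN2 (-0.42) and CDC45 (-0.87). Histone and SAGA genes with a more positive response were HHF2 (1.01), HHT2 (0.79), HTA1 (0.73), HHT1 (0.73), HTA2 (0.86) and HTB2 (0.45). Among other named genes, YGR067C (1.58), SPG4 (2.21), YIG1 (2.87) and DAN1 (2.599) responded more positively. For other named genes, the difference was negative in PHO84 (-0.73), TPO2 (-1.31), PST1 (-0.97), YBR056W-A (-1.44), YOL014W (-0.69) and YJL107C (-1.79). The MIG2 difference lost its call when 1 library was left out in 8 cases (0.28 to 0.32): replicates 2 and 3 of Spt7m in sucrose, 1 and 2 of Spt7m in glucose, 1 and 2 of WT in sucrose, and 2 and 3 of WT in glucose. The CLN2 difference lost it without replicate 2 of Spt7m in sucrose (-0.35, adjusted p = 0.0523 in limma) or replicate 1 in glucose (-0.35, adjusted p = 0.0556).

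Against Gcn5m, the named genes with a called difference of at least 0.5 were these. Among sugar uptake, sugar kinase and repression genes, SUC2 (0.90), MAL12 (0.63), HXT5 (1.69) and REG2 (0.55) responded more positively. For gluconeogenic, acetate and methylcitrate genes, the difference was positive in CAT8 (0.53), PCK1 (1.86) and FBP1 (1.93). Respiratory and mitochondrial genes with a more positive response were SDH1 (1.098), SDH3 (0.55), SDH2 (1.05), QCR10 (0.99), COX4 (0.83) and CYC1 (1.41). Among glycolytic and ethanol genes, PDC5 (-2.57) responded more negatively. For stress, chaperone and storage sugar genes, the difference was positive in HSP26 (0.92), CTT1 (0.56), SIP18 (1.79), HSP30 (0.85), YRO2 (1.04) and RTN2 (1.34). Among ribosome and RNA polymerase genes, DBP2 (-0.65) responded more negatively. Among histone and SAGA genes, HHF2 (-0.72), HHT1 (-0.62), HTA2 (-1.47) and HTB2 (-1.18) responded more negatively. Among other named genes, PHO84 (1.29) responded more positively. Among other named genes, TPO2 (-0.52) responded more negatively.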

How the results depend on the processing

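Counts of called genes stayed within 1.5 times the reported ones under the pseudocount, filter, rescaling, block and compared-groups alternatives. Without 1 library at a time they were 4260 to 4295 for the sucrose effect in Spt7m (4437 with all), 3596 to 3719 in WT (3894), 4138 to 4227 in Gcn5m (4323), 2595 to 2704 for the difference from WT (2773) and 616 to 816 for the difference from Gcn5m (807). A 2-fold minimum left 585, 258, 493, 197 and 20 genes. Same-numbered libraries did not deviate together (correlations of -0.072, -0.43 and -0.0019), so the numbers share only a label, and every sucrose library matched another number best. The replicate block gave 4442 calls in Spt7m, 2808 for the difference from WT and 799 for that from Gcn5m. Of 4799 values of single genes under these alternatives, 18 lost a call in the Spt7m sucrose effect and 12 in the difference from WT, 1 and 13 gained one, and 13 and 22 turned sign. The cause was not tested. In the sucrose effect, signs turned for GCN5 (-0.12 with quantile normalization and -0.13 with median rescaling) and NGG1 (-0.10 with quantile normalization and -0.15 with median rescaling). Then came MIG2 (-0.023 with quantile normalization and -0.029 with median rescaling) and CTT1 (-0.028 with quantile normalization and -0.032 with median rescaling). The rest included DAN1 (-0.12 with quantile normalization, -0.25 with median rescaling and -0.13 to 0.13 when leaving out 1 library). In the difference from WT, they turned for SPT7 (-0.012 to 0.079 when leaving out 1 library) and GCN5 (-0.12 to 0.042 when leaving out 1 library). Then came HXT2 (0.31 with quantile normalization) and INO1 (-0.0016 with a pseudocount of 0.1, -0.01004 with median rescaling and -0.11 to 0.077 when leaving out 1 library). The rest included EMI2 (-0.00071 with quantile normalization) and TDH3 (0.063 with quantile normalization). The last was SPT20 (-0.01008 with median rescaling and -0.047 to 0.087 when leaving out 1 library). Depth is unknown, so no counting limit could be given for low genes.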

Other observations

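Counts for the other gene groups are set beside all genes, of which 51.6% rose and 24.4% fell in Spt7m. Of 28 genes for poor nitrogen sources, 24 rose and 0 fell, with a median of 0.78 against 0.55 in WT. The genes named from here on were chosen after their values were seen. For PUT4 the values were 6.57, 7.02 and 6.81 FPKM in glucose and 126, 128 and 129.7 in sucrose. PUT4 encodes the proline permease and rose in both strains (4.05 ± 0.07, 3.903 ± 0.07 in WT), while the proline oxidase gene PUT1 (2.17 ± 0.07, 1.18 ± 0.07 in WT) and the ornithine transaminase gene CAR2 (2.21 ± 0.08, 1.29 ± 0.08 in WT) rose more in Spt7m. Of 11 mitochondrial carrier genes, 9 rose and 1 fell, led by the pyruvate carrier gene MPC3 (3.28 ± 0.07, 2.23 ± 0.07 in WT) and the oxodicarboxylate carrier gene ODC1 (2.402 ± 0.04). All 9 genes of Hap and other respiratory regulators rose (6 rose and 1 fell after either rescaling), including the hypoxic repressor gene ROX1 (1.604 ± 0.05, 0.59 ± 0.05 in WT). Among 17 peroxiredoxin and thioredoxin genes, 12 rose and 4 fell, against 6 and 7 in WT. TSA2, a peroxiredoxin gene, rose in Spt7m (0.99 ± 0.08) and fell in WT (-0.58 ± 0.08).

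Glucose sensing genes counted 7 higher and 2 lower of 10, with the sensor gene SNF3 higher (1.44 ± 0.07) and the corepressor gene STD1 lower (-1.31 ± 0.09). Galactose genes counted 6 and 1 of 8. For sulfate and methionine genes it was 17 and 5 of 27, with the S-methylmethionine permease gene MMP1 highest (2.01 ± 0.07). Copper and zinc genes had 9 higher and 1 lower of 16, close to the shares over all genes for the rises, and these became 8 and 4 with quantile normalization and 7 and 5 with median rescaling. Regulators of ribosome genes had 8 and 1 of 13, or 5 and 4 after either rescaling. Falls outnumbered rises for phosphate genes (12 and 8 of 25), ergosterol genes (13 and 7 of 26) and fatty acid synthesis genes (7 and 2 of 9, with the elongase gene ELO3 at -1.17 ± 0.04). They also did for pheromone response genes (9 and 3 of 16), where FAR1, whose product arrests the cell cycle, fell (-1.05 ± 0.05) and rose in WT (0.14 ± 0.05), and for hypoxic mannoprotein genes (5 and 3 of 10). Mitosis genes had 8 each way of 18, or 8 higher and 10 lower with quantile normalization and 6 and 11 with median rescaling. Medians turned with a rescaling for bromodomain genes outside SAGA (0.22, 14 higher and 2 lower of 20, or 6 and 4 with quantile normalization and 4 and 5 with median rescaling), amino acid synthesis genes under Gcn4 (0.16, 20 and 10 of 37), branched-chain amino acid genes (0.09, 5 and 4 of 12), phospholipid genes (0.08, 6 and 4 of 13) and ribonucleotide reductase genes (0.13, 4 and 3 of 10). The counts for the amino acid and branched-chain groups lie near the shares over all genes.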
